A study of Caenorhabditis elegans with 8 samples.

Results

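The spe, fer and try genes of Caenorhabditis elegans were taken by gene symbol alone: every gene whose symbol in the WBcel235 annotation starts with spe-, fer- or try-. They numbered 44 of the 46726 genes in the count tables, with 29 spe genes, 1 fer gene and 14 try genes, all of them protein-coding. Of these, 39 had 10 or more counts in at least 2 of the 8 libraries and are described here (27 spe, 1 fer and 11 try). The same 39 passed the filter on low counts and were tested. The other 5 were try-5, spe-27, spe-38, try-9 and try-15, whose highest count in any library was 12.

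Genes named spe or fer were found through mutants that make defective sperm. A worm spermatid packs major sperm protein into fibrous bodies beside membranous organelles, divides, and is later activated: the organelles fuse with the cell surface and a crawling pseudopod extends. Sperm surface and secreted proteins then act at the meeting with the oocyte. Hermaphrodites make their sperm in the last larval stage before the germ line turns to oocytes, and males make sperm throughout adult life. The try genes encode trypsin-like serine proteases, of which try-5 is known as a seminal fluid protease that activates male sperm. The label of a spermatogenesis family therefore fits the spe and fer genes by name, but not the try genes other than try-5.

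RNA came from whole worms of the wild-type strain N2 and of an N2 derivative that carries am286, a loss-of-function allele of the nuclear receptor gene hizr-1, each with and without cadmium chloride. Populations of mixed stages were founded from hermaphrodites, grown for 4 days at 20 °C, and then held for 16 to 18 h on noble agar minimal medium with bacterial food and cadmium chloride at 0 or 100 mM, the dose given in the labels. Worm studies usually use micromolar doses, and the unit could not be checked. Each of the 4 groups held 2 libraries, each from the pooled animals of 10 plates. The plates were parallel cultures of 1 strain per genotype, and p-values cover that spread alone. Total counts ran from 17681352 to 29586507, and a count of 3, the limit that an unseen gene allows, equalled 0.101 to 0.17 CPM (reads of a gene scaled to a common library total). The targeted gene hizr-1 had 52 to 101 counts in the wild-type libraries and 7 to 20 in the mutant libraries. Its log2 change, mutant against wild type, was -2.16 ± 0.35 with cadmium (SE, edgeR adjusted p = 0.00635). Without cadmium the change was -1.99 ± 0.38 and did not pass (edgeR adjusted p = 0.0931). In bulk RNA of whole animals, fewer sperm-forming cells and less RNA per cell cannot be told apart.

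Levels differed widely among the genes. On the scale of CPM per kilobase of exon, with library sizes scaled by the trimmed mean of M values (TMM), the protease genes try-14 and try-1 were the highest, with means over the 8 libraries of 153 and 71.6. The vesicle-trafficking gene spe-39 followed at 46.1, then spe-48 at 24.1 and the transcriptional regulator gene spe-44 at 14.9. The next levels were 9.08 for spe-18, a fibrous body gene, and 7.54 for spe-5, which encodes a subunit of the proton pump V-ATPase. The lowest was the fertilisation gene spe-42 at 0.259. From the lowest to the highest library, try-14 differed by 1.23 times, spe-48 by 1.25 times and spe-39 by 1.38 times, whereas spe-18 differed by 13.7 times and the egg activation gene spe-11 by 27 times. Of the 39 genes, 24 had their lowest CPM in the first cadmium-exposed wild-type library and 6 in the second. The highest CPM was in the first mutant library without cadmium for 17 and in the second for 8. These counts were not taken over all tested genes. A trait of the family and one of the libraries therefore cannot be told apart here.

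**Figure D1:**
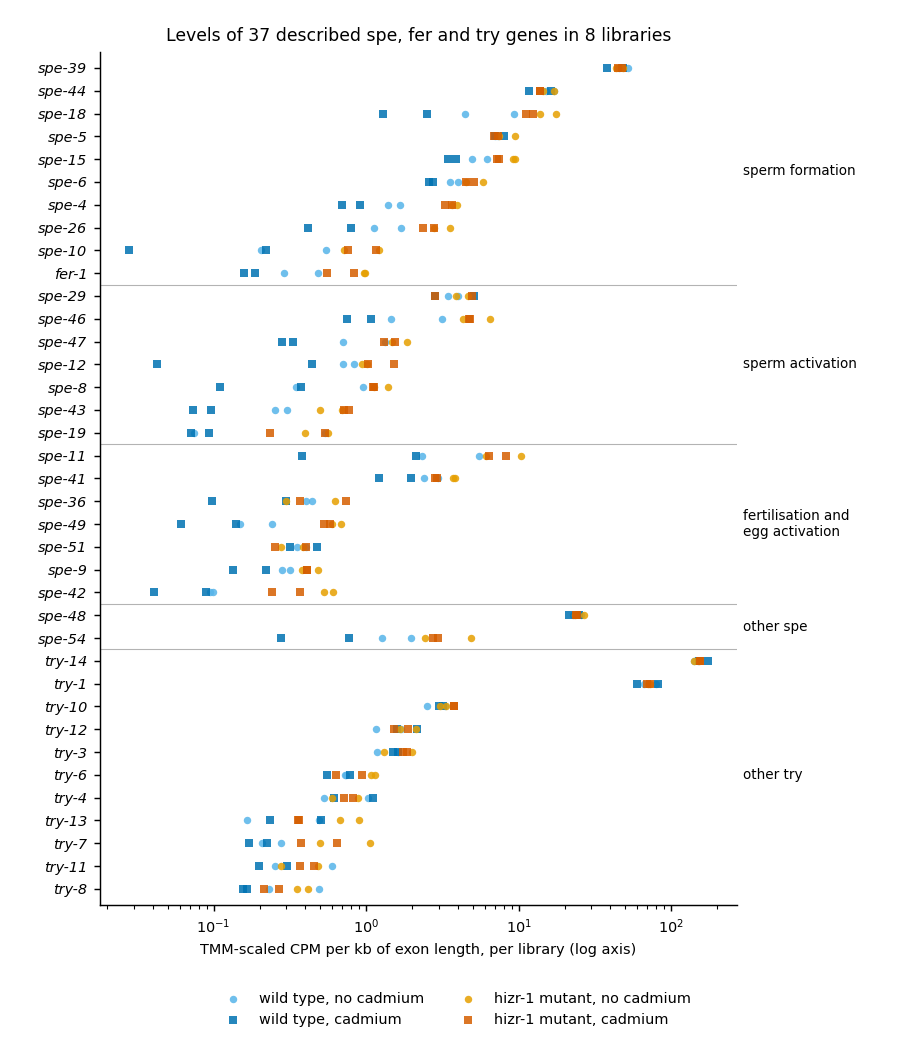
Level of 37 of the 39 described genes in each of the 8 libraries, in TMM-scaled CPM per kb of exon length on a log axis, grouped by role; circles are cultures without cadmium, squares with cadmium, blue wild type and orange hizr-1 mutant. The points of try-14, spe-48 and spe-39 lie together, while those of spe-18 and spe-11 spread over 13.7 and 27 times with the cadmium-exposed wild type lowest.

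With cadmium, 13 spe and fer genes were higher in the hizr-1 mutant than in the wild type, a count that fell when some single libraries were left out. By edgeR's quasi-likelihood test over all 15818 tested genes, 13 of the 39 rose, which is 33.3%, and 0 fell; of all tested genes 3.83% rose and 0.430% fell in this comparison. The 13 were 6 of 11 genes of sperm formation, 4 of 7 of sperm activation, 2 of 8 of fertilisation and egg activation, and spe-54. None of the 11 tested try genes was among them. Of the 39, 29 reached 10 counts in 2 libraries of each genotype, and 9 of these 29 rose. The other 10, with 4 of the calls (spe-10, spe-42, spe-43 and spe-49), reached it in the mutant alone, so they entered the test through the group in which they were high. The median log2 change was 1.22 over the 39 genes, of which 31 were above 0, and -0.01 over all tested genes, of which 48.3% were. Both mutant libraries lay above both wild-type libraries for 27 of the 39 genes and for 20.8% of all tested genes. By group the medians were 1.98 for sperm formation, 2.25 for sperm activation, 1.35 for fertilisation and egg activation, and 0.19 for the try genes. Without the first cadmium-exposed wild-type library 0 of the 39 passed by edgeR (smallest adjusted p = 0.0829, 16 at an unadjusted p under 0.05, median 0.96), and without the first or second cadmium-exposed mutant library 4 and 3 passed (medians 1.44 and 0.94). Across all genes, omitting the wild-type library left 5 higher and 19 lower genes in place of 606 and 68, and omitting either mutant library left 113 and 173 higher genes.

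**Figure D2:**
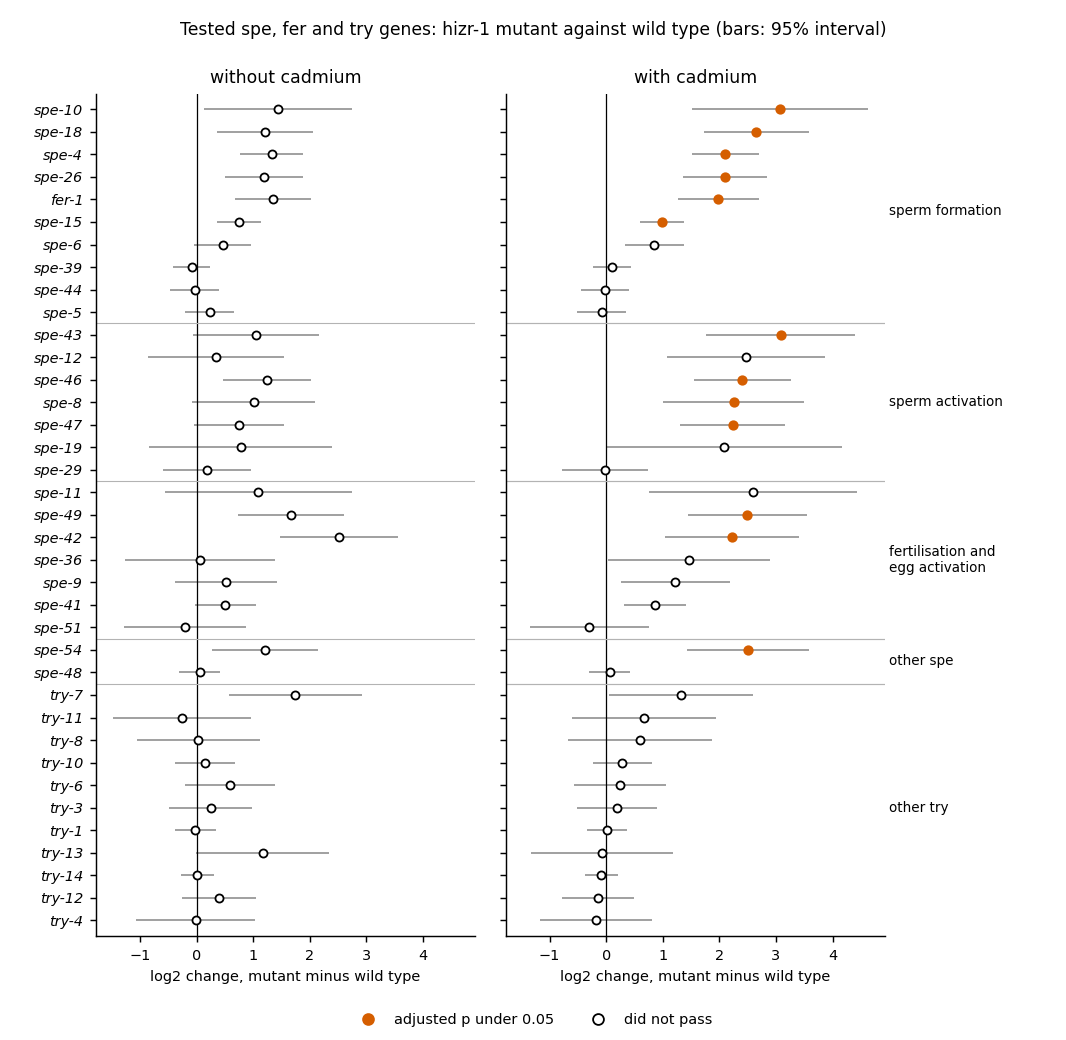
Log2 change, hizr-1 mutant minus wild type, of 37 of the 39 tested genes without cadmium (left) and with cadmium (right), with 95% intervals from the quasi-likelihood standard error; filled orange points passed at adjusted p under 0.05. With cadmium 13 genes passed, all to the right of 0 and none of them a try gene, and without cadmium none passed.

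Genes that build the sperm cell held the largest number of calls. The presenilin-family gene spe-4 (I 7454669 to 7456887, + strand, 8 exon blocks), which acts in the fibrous body-membranous organelles, had 1.06 and 1.39 CPM in the cadmium-exposed wild type and 4.98 and 5.52 CPM in the cadmium-exposed mutant. Its libraries without cadmium had 2.10 and 2.51 CPM in the wild type and 5.55 and 6.01 CPM in the mutant, so all 4 mutant libraries lay above all 4 wild-type libraries. The log2 change with cadmium was 2.10 ± 0.27 (SE, adjusted p = 0.0025), the smallest adjusted p of the family.

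The kelch-repeat gene spe-26 (IV 10389577 to 10391945, - strand, 6 exon blocks), needed for the meiotic divisions of spermatocytes, had 0.751 and 1.43 CPM in the cadmium-exposed wild type and 4.24 and 5.0 CPM in the mutant. Without cadmium spe-26 had 2.03 and 3.04 CPM in the wild type and 6.37 and 5.03 CPM in the mutant. The wild-type and mutant libraries did not overlap, and with cadmium the log2 change was 2.10 ± 0.35 (adjusted p = 0.00665). The ferlin-family gene fer-1 (I 8623017 to 8631184, - strand, 21 exon blocks), whose product fuses membranous organelles with the cell surface, had 1.16 and 0.985 CPM in the cadmium-exposed wild type and 3.44 and 5.21 CPM in the mutant. Without cadmium fer-1 had 1.82 and 3.04 CPM against 6.05 and 6.17 CPM, again with no overlap. Its log2 change with cadmium was 1.98 ± 0.33 (adjusted p = 0.00708).

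The fibrous body gene spe-18 (II 13151460 to 13153386, - strand, 4 exon blocks) was the most abundant called gene per kilobase. Its CPM was 1.57 and 3.05 in the cadmium-exposed wild type against 13.6 and 15.1 in the mutant, and 5.38 and 11.3 against 21.5 and 16.9 without cadmium. Again no wild-type library reached a mutant one, although the wild-type replicates without cadmium differed from each other by more than the mutant replicates did. The log2 change with cadmium was 2.65 ± 0.41 (adjusted p = 0.00957).

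The unconventional myosin gene spe-15 (I 1446666 to 1465340, + strand, 17 exon blocks), which helps sort material between spermatid and residual body, had the smallest fitted change of the 13 called genes. It had 13.1 and 14.7 CPM in the cadmium-exposed wild type and 27.1 and 28.2 CPM in the mutant, and 18.7 and 23.5 against 35.9 and 34.8 CPM without cadmium. Replicates lay close together, and the log2 change with cadmium was 0.99 ± 0.18 (adjusted p = 0.00951). The palmitoyltransferase-family gene spe-10 (V 10384157 to 10385711, + strand, 5 exon blocks) had few reads in the cadmium-exposed wild type, with 1 and 6 counts, against 44 and 18 in the mutant. Without cadmium its counts were 7 and 14 in the wild type and 38 and 16 in the mutant. The log2 change of spe-10 with cadmium was 3.06 ± 0.71 (adjusted p = 0.0327), with a 95% interval of 1.51 to 4.62.

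Of the other genes of sperm formation, the casein kinase gene spe-6 had 3.07 and 3.27 CPM in the cadmium-exposed wild type and 6.04 and 5.36 CPM in the mutant, a log2 change of 0.85 ± 0.24 that did not pass (adjusted p = 0.0754). The genes spe-39, spe-44 and spe-5 were among the most abundant of the group per kilobase, and with cadmium their wild-type and mutant libraries overlapped. The regulator spe-44, which turns on other sperm genes, had 19.1 and 26.8 CPM in the cadmium-exposed wild type and 22.7 and 22.6 CPM in the mutant, and 24.7 and 27.7 against 23.6 and 27.6 CPM without cadmium. For spe-39 the values were 71.7 and 91 against 84.8 and 90.2 CPM with cadmium and 86.3 and 98.9 against 82.3 and 91.9 CPM without. For spe-5 they were 11.2 and 12.9 against 11.7 and 11.1 CPM with cadmium and 11.2 and 11.9 against 12 and 15.1 CPM without. None of these genes separated the genotypes under cadmium. The 95% interval of the log2 change with cadmium was -0.44 to 0.41 for spe-44, -0.23 to 0.44 for spe-39 and -0.51 to 0.35 for spe-5. These upper bounds lie below the lower bounds of spe-4, spe-26, spe-18, fer-1, spe-10 and spe-15, the lowest of which was 0.60 for spe-15. The latter genes passed in this same comparison, so their lower bounds were bound to lie above 0. A difference between the genes was not tested.

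Among the 7 tested genes of sperm activation, 4 passed. The gene spe-46 (I 9056294 to 9057822, + strand, 7 exon blocks) had 0.751 and 1.07 CPM in the cadmium-exposed wild type and 4.85 and 4.74 CPM in the mutant. Without cadmium spe-46 had 1.46 and 3.18 CPM against 6.48 and 4.32 CPM. All 4 mutant libraries were above all 4 wild-type libraries, and with cadmium the log2 change was 2.41 ± 0.39 (adjusted p = 0.00699).

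The gene spe-47 (I 2617560 to 2620425, + strand, 6 exon blocks), which encodes a protein with a major sperm protein domain that affects the timing of activation, had 0.342 and 0.403 CPM in the cadmium-exposed wild type and 1.90 and 1.60 CPM in the mutant. Without cadmium spe-47 had 0.855 and 1.61 CPM against 2.27 and 1.80 CPM. Its change with cadmium was 2.23 ± 0.43 (adjusted p = 0.0121). Reads were fewer for the kinase gene spe-8 (I 118104 to 120870, + strand, 7 exon blocks), with 5 and 13 counts in the cadmium-exposed wild type and 54 and 33 in the mutant. Without cadmium spe-8 had 15 and 31 against 55 and 32 counts, and the change with cadmium was 2.25 ± 0.57 (adjusted p = 0.0481).

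Counts of spe-43 (IV 13133404 to 13142354, - strand, 7 exon blocks) were 2 and 2 in the cadmium-exposed wild type and 21 and 14 in the mutant, and 8 and 5 against 12 and 12 without cadmium. Its log2 change of 3.08 ± 0.60 (adjusted p = 0.0134) had a 95% interval of 1.77 to 4.39, and no wild-type library of spe-43 reached 10 counts. Just short of the threshold was the membrane protein gene spe-12, with 1 and 8 against 26 and 24 counts with cadmium and 19 and 12 against 21 and 14 without (2.47 ± 0.64, adjusted p = 0.0516). For spe-19, another membrane protein gene of activation, counts with cadmium were 2 and 2 against 7 and 10, and 2 and 11 against 14 and 7 without; the change of 2.09 ± 0.96 did not pass (adjusted p = 0.443). The small gene spe-29, also of the activation pathway, stood apart from these: its CPM was 3.14 and 1.75 in the cadmium-exposed wild type and 3.05 and 1.75 in the mutant, with a 95% interval of -0.78 to 0.75. Without cadmium spe-29 had 2.50 and 2.13 against 2.42 and 2.89 CPM. The seminal protease gene try-5 had 1 to 10 counts per library and spe-27 had 0 to 12, so neither passed the filter on low counts.

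Among genes of fertilisation, spe-49 and spe-42, which encode related membrane proteins of the sperm surface needed for entry into the oocyte, passed. Counts of spe-49 (V 6281359 to 6284865, + strand, 16 exon blocks) were 4 and 7 in the cadmium-exposed wild type and 40 and 23 in the mutant, and 15 and 7 against 34 and 28 without cadmium. Those of spe-42 (V 11733544 to 11736968, - strand, 15 exon blocks) were 3 and 5 against 19 and 18 with cadmium and 7 and 5 against 34 and 28 without. No wild-type library reached the level of any mutant library for either gene. The log2 changes with cadmium were 2.49 ± 0.48 for spe-49 (adjusted p = 0.013) and 2.22 ± 0.54 for spe-42 (adjusted p = 0.0387).

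The paternal gene spe-11, whose product acts in the egg after fertilisation, had the largest fitted change of this group but did not pass. Its CPM was 0.376 and 2.10 in the cadmium-exposed wild type and 6.33 and 8.09 in the mutant, and 2.28 and 5.45 against 10.2 and 6.06 without cadmium. The change of spe-11 with cadmium was 2.59 ± 0.76 (adjusted p = 0.181). The channel gene spe-41 (trp-3) had 3.24 and 5.28 against 7.77 and 7.63 CPM with cadmium and 6.38 and 7.87 against 10.3 and 9.89 CPM without (with cadmium 0.86 ± 0.25, adjusted p = 0.0928). Changes that did not pass were also fitted for spe-36, a secreted sperm protein gene with 3 and 7 against 12 and 15 counts with cadmium and 13 and 9 against 8 and 12 without (1.47 ± 0.66) and spe-9, a sperm surface protein gene with epidermal growth factor repeats (1.22 ± 0.44). The secreted protein gene spe-51 had 10 to 15 counts in every library and a 95% interval of -1.35 to 0.75.

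Beside these groups stood 2 further spe genes. Expression of spe-54 (I 8869715 to 8871531, + strand, 8 exon blocks) was 0.273 and 0.761 CPM in the cadmium-exposed wild type and 2.92 and 2.73 CPM in the mutant, and 1.25 and 1.94 against 4.80 and 2.40 CPM without cadmium. Under cadmium spe-54 was higher in the mutant than in the wild type by 2.50 ± 0.49 (log2, adjusted p = 0.0166). The abundant gene spe-48 had 26.6 and 31.1 against 29.9 and 30.3 CPM with cadmium, 28.6 and 31.9 against 29.4 and 33.3 CPM without, and a 95% interval of -0.30 to 0.42.

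None of the 11 tested try genes passed between genotypes, with or without cadmium. The most abundant, try-14 (X 7493731 to 7495591, - strand), had 164 and 187 CPM in the cadmium-exposed wild type and 166 and 165 CPM in the mutant, and without cadmium 152 and 161 against 164 and 152 CPM. For try-1 (II 4948154 to 4949486, - strand) the values with cadmium were 60.4 and 82.6 against 70.5 and 73.8 CPM, and without cadmium 67.1 and 80.7 against 73.3 and 71.8 CPM. For the log2 change with cadmium, 95% intervals were -0.38 to 0.20 for try-14 and -0.35 to 0.38 for try-1. With cadmium try-10 had 3.55 and 3.81 against 4.47 and 4.48 CPM, and without it 2.99 and 3.89 against 3.63 and 3.99 CPM. For try-12 the values were 3.59 and 2.69 against 2.57 and 3.14 CPM with, and 2.82 and 1.94 against 2.77 and 3.55 CPM without cadmium. For try-3 they were 1.64 and 1.52 against 1.86 and 1.75 CPM with, and 1.64 and 1.19 against 2.03 and 1.31 CPM without cadmium. Of these, try-10 alone had both exposed mutant libraries above all others. For try-10, try-12 and try-3 the changes were 0.28, -0.15 and 0.19, and the intervals all held 0. The gene with the largest fitted change was try-7 (I 6640653 to 6642643, - strand), with 6 and 6 against 14 and 15 counts with cadmium and 7 and 7 against 33 and 11 without. All 4 mutant libraries of try-7 were above all 4 wild-type libraries, but the changes of 1.32 ± 0.59 with and 1.74 ± 0.54 without cadmium did not pass (adjusted p = 0.404 and 0.244). Without cadmium both mutant libraries were also above both wild-type libraries for try-13 (16 and 4 against 20 and 19 counts, 1.17 ± 0.54, adjusted p = 0.467) and try-6 (27 and 20 against 36 and 27 counts, 0.59 ± 0.36, adjusted p = 0.638). With cadmium their changes were -0.07 and 0.24. The neighbours try-11 and try-8 on chromosome V lie on opposite strands and share 193 exonic bases; each had 81 counts over the 8 libraries, and as no strand setting is stated, reads from the shared stretch, 17% of the exon length of try-11 and 13.4% of that of try-8, cannot be told apart.

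Without cadmium, 33 of the 39 genes had fitted values above 0 in the mutant against the wild type, as did 47.6% of all tested genes, but none passed. By edgeR 0 of 39 passed in either direction, where 0.126% of all tested genes did. An unadjusted p under 0.05 was reached by 11 genes, all higher in the mutant (7.20% of all tested genes). DESeq2 called spe-4, spe-15, spe-18 and fer-1, where it called 80 of all tested genes higher, and limma-voom called 0 of the family. The median log2 change was 0.59 over the 39 genes, against -0.02 over all tested genes. The largest fitted changes were those of spe-42 (2.52 ± 0.48, adjusted p = 0.0931), try-7, spe-49 (1.67 ± 0.43), spe-10 (1.44 ± 0.60) and fer-1 (1.35 ± 0.31). All of these but fer-1 passed the filter through mutant libraries, and for spe-42 and try-7 no wild-type library reached 10 counts. Without the second wild-type library lacking cadmium, 7 genes passed: fer-1, spe-4, spe-15, spe-18, spe-26, spe-42 and spe-46. Over all genes that fit called 413 higher, against 14 with all libraries.

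The comparisons with and without cadmium share no library, so their values can be set side by side. The 13 genes called with cadmium all had log2 changes above 0 without cadmium, from 0.75 for spe-15 to 2.52 for spe-42, with a median of 1.21. Across the genome, 604 of the 606 genes called higher with cadmium were also above 0 without it. Taking all libraries, all 4 of the mutant lay above all 4 of the wild type for 18 of the 39 genes, 17 spe or fer genes and try-7, and for 7.11% of all tested genes. In the reverse direction the count was 0 of 39, and 2.42% of all tested genes.

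Cadmium itself lowered no gene of the family past the threshold in the wild type. By edgeR 0 of 39 passed, where 0.284% of all tested genes passed in either direction; 12 genes had an unadjusted p under 0.05, all lower with cadmium, a direction in which 6.76% of all tested genes reached that level. DESeq2 called spe-18 lower, as it did 138 of all tested genes, and limma-voom called 0 of the family. The median log2 change was -0.71 for the 39 genes, of which 30 were below 0, and -0.01 for all tested genes, of which 51.3% were. Germ cell markers were also below 0 in this comparison, 11 of 11 for oocytes (median -0.25) and 7 of 8 for the germ line (median -0.25). None passed by edgeR, and 1 oocyte and 3 germ line markers had an unadjusted p under 0.05; in the opposite direction, 7 of 8 moulting markers were above 0 (median 0.24, 2 at an unadjusted p under 0.05). Major sperm protein genes were below 0 for 26 of 26 (median -2.06), with 0 passing by edgeR, 10 at an unadjusted p under 0.05 and 3 called by DESeq2. The part of these in the sperm gene values was not tested. The largest fitted changes were -1.87 ± 0.41 for spe-18 (adjusted p = 0.18), -1.78 ± 0.68 for spe-12, -1.75 ± 1.00 for spe-19, -1.70 ± 0.44 for spe-47 and -1.70 ± 0.70 for spe-43. In 19 of the 39 genes both cadmium-exposed wild-type libraries lay below both others, which 21.3% of all tested genes did. The median was -0.65 over 40 tested genes without the first wild-type library lacking cadmium, and -0.58 over 41 without the second. Each of these fits leaves 1 library in that group, so the part of a single culture cannot be told apart from fewer libraries. With all libraries and no filter on low counts, 6 genes of the family passed as lower, where 396 did over all genes.

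In the mutant no gene of the family passed between cadmium and no cadmium either. By edgeR 0 of 39 passed (0.0316% of all tested genes passed in either direction), spe-42 alone had an unadjusted p under 0.05 (lower, as 0.607% of all tested genes were), and DESeq2 and limma-voom called 0. The median log2 change was -0.18, with 29 of 39 genes below 0, against 0.0017 and 49.6% over all tested genes. The wild-type and mutant responses, which share no library, were -1.87 and -0.42 for spe-18, -1.70 and -0.22 for spe-47, -1.70 and 0.33 for spe-43 and -1.78 and 0.35 for spe-12. For the abundant genes they were -0.19 and 0.01 for spe-39, -0.20 and -0.18 for spe-44 and 0.16 and 0.07 for try-14. The test of the difference between the responses, mutant minus wild type, passed for 0 of 39 genes by edgeR, where 0.114% of all tested genes passed, and for 0 by DESeq2 and limma-voom. It had an unadjusted p under 0.05 for 4 genes (1.88% of all tested genes in that direction): spe-12 (2.13 ± 0.86), spe-43 (2.03 ± 0.83), spe-47 (1.48 ± 0.57) and spe-18 (1.45 ± 0.54). A difference between the genotypes in the cadmium response was therefore not shown for any gene of the family. Without the first wild-type library lacking cadmium, spe-18 passed this test, with a difference of 1.90 (adjusted p = 0.0261).

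**Figure D3:**
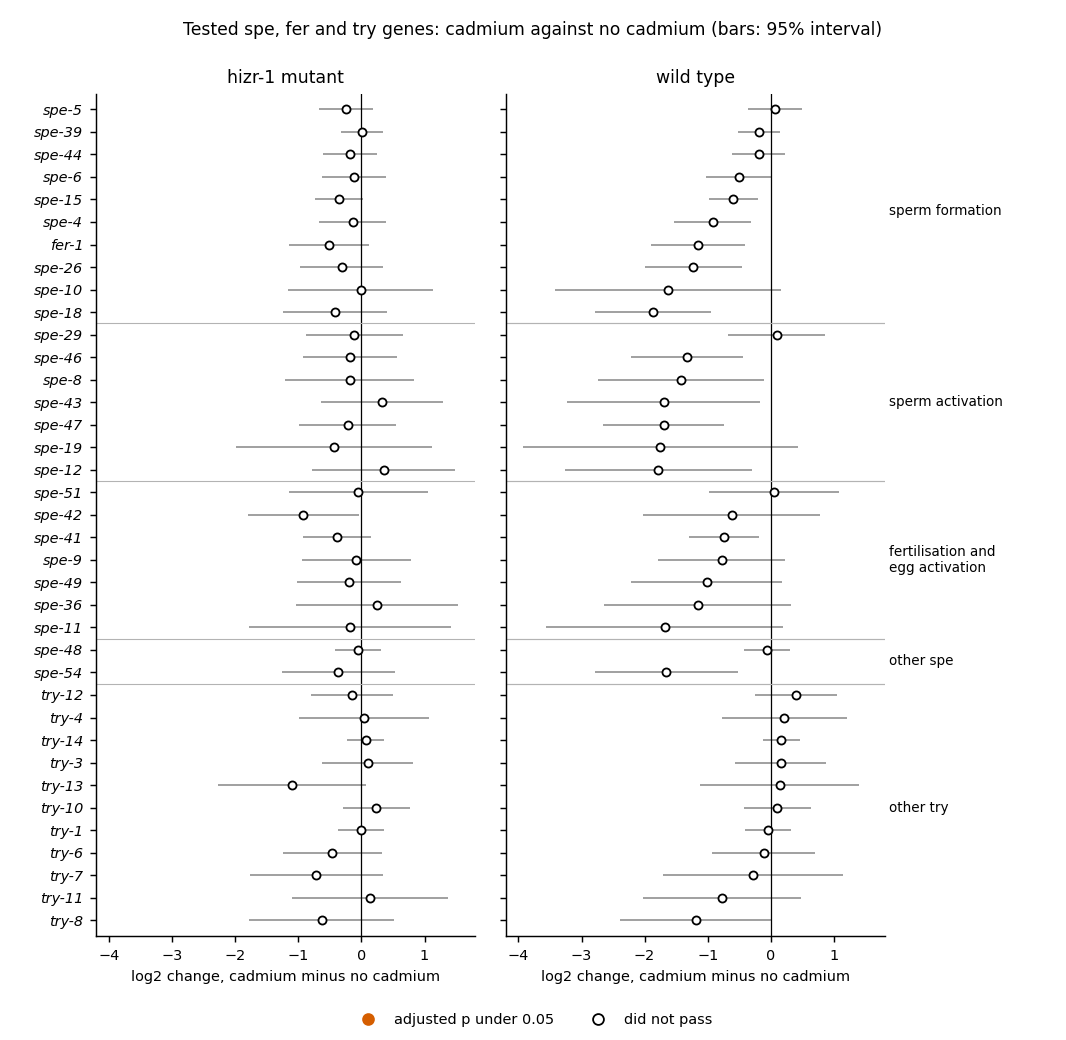
Log2 change, cadmium minus no cadmium, of 37 of the 39 tested genes in the hizr-1 mutant (left) and the wild type (right), with 95% intervals from the quasi-likelihood standard error. No gene passed in either genotype; the median over all 39 was -0.18 in the mutant and -0.71 in the wild type.

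Wild-type replicate libraries differed in the level of sperm activation genes, and less so in that of the try genes. For each gene the deviation of log2(CPM + 0.5) from its mean over the 8 libraries was taken. The median deviation of the sperm activation genes was -0.33 and 0.16 in the unexposed wild type, -1.01 and -0.55 in the cadmium-exposed wild type, 0.43 and 0.42 in the unexposed mutant and 0.44 and 0.46 in the exposed mutant. The corresponding medians of the try genes ran from -0.19 to 0.18 over all 8 libraries. For 26 tested major sperm protein genes, which are no members of the family, the values were -0.89 and 0.78, -1.93 and -1.05, 1.38 and 0.03, and 0.85 and 0.91 in the same order of groups. The wild-type replicates without cadmium thus differed by more in these genes than in the spe genes. Of the 26, all were above 0 in the cadmium-exposed mutant against the exposed wild type (median log2 change 2.91), and by edgeR 1 passed, msp-63. DESeq2 and limma-voom called 14 each, where over all 15818 tested genes they called 668 and 694 higher. By edgeR 3.83% of all tested genes were called higher. These genes are near-identical copies, so reads may be split among them.

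**Figure D4:**
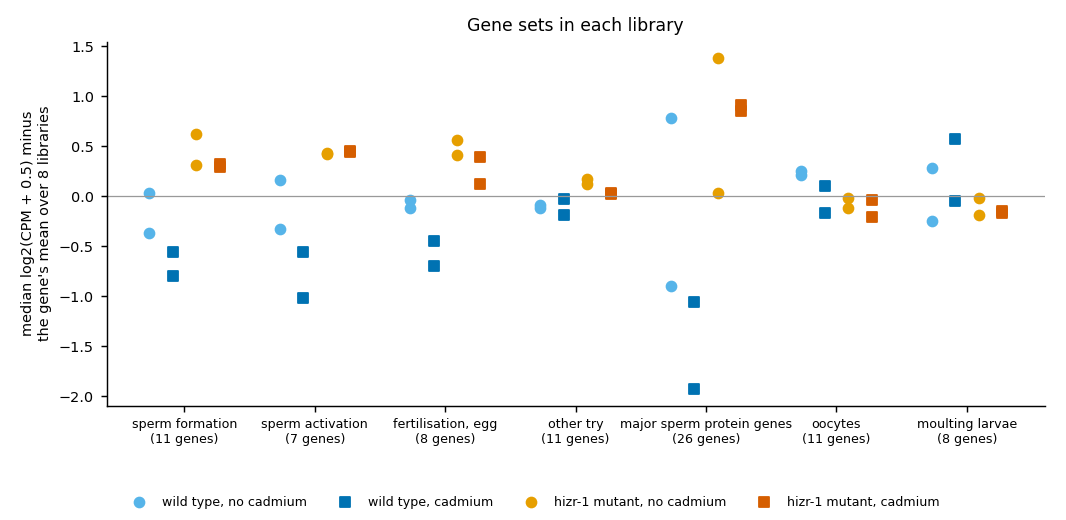
Median over the genes of each set of log2(CPM + 0.5) minus the gene's mean over the 8 libraries, 1 point per library, for 4 groups of the family, major sperm protein genes, oocyte markers and moulting markers. The activation genes lie between -1.01 and 0.46 with the cadmium-exposed wild type lowest, while the other try genes stay between -0.19 and 0.18.

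Other genes of the sperm pathway, listed from textbook roles, moved in part. Of 15 listed, trp-3 is the older name of spe-41 and the other 14 were tested; with cadmium 1 rose in the mutant by edgeR, gskl-2, a sperm kinase gene (2.11 ± 0.42, adjusted p = 0.0179). The list had a median log2 change of 0.30. DESeq2 called gskl-2, gsp-4 and comp-1, and limma-voom called 4 of the 14. Of all 15818 tested genes, edgeR called 3.83% higher in this comparison, DESeq2 668 genes and limma-voom 694. The counts of gskl-2 were 19 and 32 in the cadmium-exposed wild type and 127 and 92 in the mutant. The sperm phosphatase genes gsp-3 and gsp-4 were fitted at 2.40 ± 0.72 and 2.31 ± 0.54, and the sperm competition gene comp-1 at 2.43 ± 0.67; none of these passed by edgeR (adjusted p = 0.198, 0.0754 and 0.0991). The genes that commit germ cells to sperm, fog-1 and fog-3, were at -0.16 ± 0.17 and 0.80 ± 0.33, and the transcription factor genes elt-1 and nhr-23 at -0.22 ± 0.21 and 0.07 ± 0.18.

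Markers of other cells and stages gave no call. Of 45 tested markers (11 of oocytes, 8 of the germ line, 8 of moulting larvae, 6 of intestine, 4 of muscle, 5 of neurons and 3 of male neurons) 0 passed in any of the 5 comparisons by edgeR, DESeq2 or limma-voom. By edgeR 0.284, 0.0316, 0.126 and 0.114% of all tested genes passed in the comparisons other than genotype with cadmium, where 3.83% rose and 0.430% fell. Over all 5 comparisons, 15 tests of the 45 markers had an unadjusted p under 0.05 by edgeR. Of all 15818 genes, 1816, 282, 1706, 1774 and 513 did (cadmium in wild type, in mutant, genotype without and with cadmium, difference between responses). Absence of a change in the markers was not shown. The oocyte markers had fitted values below 0 for 11 of 11 in the mutant against the wild type without cadmium (median -0.28), and for 9 of 11 with cadmium (median -0.06). The summed oocyte markers ran from 8141 to 11439 CPM in the wild type and from 7929 to 9465 CPM in the mutant. All 8 moulting markers had fitted values below 0 in the mutant against the wild type with cadmium (median -0.45). Their sum was 721 and 481 CPM in the cadmium-exposed wild-type libraries and 432 and 454 CPM in the mutant, so the library lowest in sperm genes was the highest in moulting markers. By its median deviation that library, the first of the cadmium-exposed wild type, was also the highest of the 8 in intestine (0.20), muscle (0.44) and neuron markers (0.28) and the lowest in germ line markers (-0.27). Without cadmium the sums were 620 and 404 CPM in the wild type, whose first library was also the lower in sperm genes, and 429 and 511 CPM in the mutant. Of 7 listed markers of male neurons 3 were tested. The fitted log2 changes in the mutant against the wild type were 1.25 ± 0.77 without and 0.90 ± 0.61 with cadmium for lov-1, -0.68 ± 0.58 and 0.61 ± 0.51 for cwp-5, and -0.09 ± 0.42 and -0.17 ± 0.39 for cwp-4, with a median of 0.61 with cadmium; none passed. Of the 4 too low for the filter, pkd-2 had 0 to 14 counts per library, with 14 in the first cadmium-exposed mutant library, cwp-2 had 0 to 4, cwp-3 had 0 to 2 and cwp-1 had 0 or 1. The sum of the tested 3 was 1.61 to 3.69 CPM in the wild type and 1.91 to 3.28 CPM in the mutant. The part of larval stage or of males in the sperm gene differences was not tested.

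The genes of the family sat mostly on autosomes I, V and IV. Of the 44, 16 were on chromosome I, 12 on V, 10 on IV, 3 on II, 2 on III and 1, try-14, on X. Chromosome I thus held 36.4% of the family and 16.2% of all tested genes, and X held 2.27% and 14.3%. Of the 13 genes called with cadmium 7 were on I, 3 on V, 2 on IV and 1 on II. Among these 13, exons of spe-26, spe-47 and fer-1 overlap small RNA or non-coding genes that had 0 counts in all libraries, and those of the other 10 overlap no annotated gene.

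Calls changed as 1 library at a time was left out, in the family and over all genes. Each such fit leaves 1 library in a group. The effect of fewer libraries and the part of a single culture in the calls cannot be told apart. All 13 genes passed without either library of the unexposed wild type, and 16 genes passed in each of those fits. Without the second cadmium-exposed wild-type library 13 genes passed, of which 10 were among the original 13. The genes spe-4, spe-26 and spe-46 passed in 14 of 15 alternatives each, failing only without the first cadmium-exposed wild-type library. In that fit their adjusted p was 0.0829, 0.156 and 0.189, with log2 changes of 1.91, 1.68 and 2.15.

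**Figure D5:**
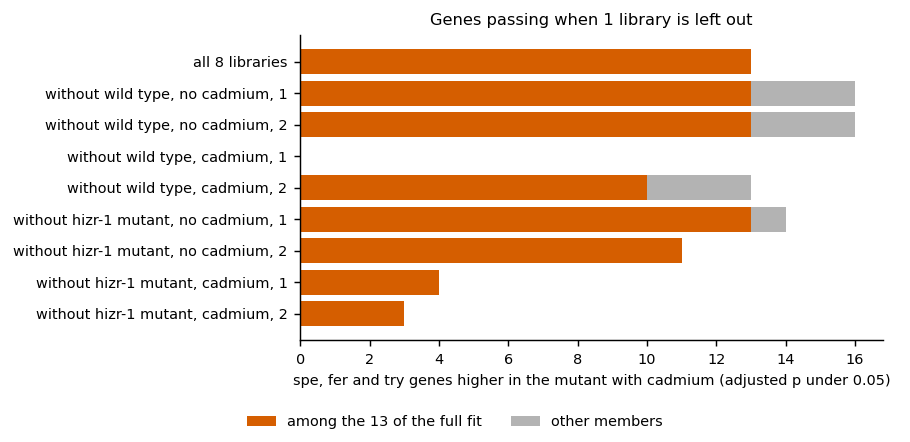
Number of spe, fer and try genes higher in the mutant than in the wild type with cadmium (edgeR, adjusted p under 0.05) with all 8 libraries and with each library left out; orange bars are genes among the 13 of the full fit and grey bars other genes of the family. The bar is at 0 without the first cadmium-exposed wild-type library and at 16 without either unexposed wild-type library.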

How the data were processed

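Ribosomal-RNA-depleted RNA of whole worms was sequenced in 8 libraries, 2 per group. STAR 2.0.4b and featureCounts 1.45 of the Subread package are named in the submitters' processing notes, with the build WBcel235; the strand setting and annotation release are not given in the sources used here. Per the file headers, the authors deposited for each gene a read count, a CPM value (the count scaled by the library total) and an RPKM value (CPM per kilobase of exon). The deposited CPM and RPKM values equal those recomputed from the counts within 1e-06, and only the counts were tested.

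Counts were scaled by TMM and fitted with edgeR 4.0.16 (R 4.3.3), as 4 group means over all 8 libraries, with a robust quasi-likelihood F test. The filter filterByExpr left 15818 genes. Genes were called at a Benjamini-Hochberg adjusted p under 0.05 over all of them, and intervals are 95% intervals from the fit's standard error. A count of 3 was taken as the limit of an unseen gene; intervals and limits cover counting and replicate error of these libraries only. The 5 comparisons were cadmium within each genotype, genotype with and without cadmium, and the difference between the cadmium responses. Alternatives were size factors of the RLE method, no filter, 10 counts in 2 libraries, DESeq2 1.42.0, limma-voom (limma 3.58.1), the replicate number as a block, the 4 libraries of a comparison alone, and each library left out. The test was tried on simulated data.

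Genes were named where they passed, were among the 5 most abundant per kilobase in their role group, or had one of the 5 largest fitted changes in the cadmium comparison of the wild type or the genotype comparison without cadmium; other genes, among them spe-6 and spe-9, were added after their values were seen. Individual values of 2 described genes are not reported here; both stay in all counts and medians. The members and all lists were chosen with earlier results of these data known. Coordinates and exon blocks are those in the deposited tables.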

Additional observations from a re-analysis of the deposited data

How the results depend on the processing

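Of 148 alternative values of the family's 10 summaries (genes passing and median change in 5 comparisons), 29 moved past the set limits. Genes passing for cadmium in the wild type numbered 0. There were 6 with no filter, 1 by DESeq2 and 2 with only the 4 libraries of that comparison. In that last fit 28 genes of the family passed the filter, against 39 in the full fit. Their median of -0.33 therefore covers a different set of genes. Over all genes these alternatives called 396, 138 and 289 lower, against 8 in the full fit. For genotype without cadmium 9 passed with no filter and 4 by DESeq2, where over all genes 511 and 80 were higher against 14. For the difference between responses 1 passed with no filter, where over all genes 55 were higher against 1. For genotype with cadmium the median was 0.98 with only the 4 libraries of that comparison, over the 35 genes that passed the filter there. Leaving out 1 library at a time gave 0 to 6 genes and medians of -1.12 to -0.50 for cadmium in the wild type, 0 to 0 and -0.30 to -0.13 for cadmium in the mutant, 0 to 7 and 0.55 to 0.80 for genotype without cadmium, 0 to 16 and 0.94 to 1.5 for genotype with cadmium, and 0 to 1 and 0.20 to 0.53 for the difference between responses. The cadmium response of spe-19 in the wild type, -1.75, was -2.67 without the first and 0.11 without the second unexposed wild-type library, which held 11 of that group's 13 counts. The other causes were not tested. A group left with 1 library is assumed to vary like the others, and calls over all genes changed in those fits too.

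With the replicate number as a block, 11 genes passed for genotype with cadmium, spe-8 and spe-10 being lost, and 0 in each other comparison. Over all genes 491 were higher for genotype with cadmium, against 606 without the block. The labels give only a number, and same-numbered libraries deviated together with r from -0.431 to 0.420 over 15818 genes, so the pairing was not used. Genes with few reads, such as spe-43 with 2 and 2 counts in the cadmium-exposed wild type, have wide intervals, and the 5 genes left out by the filter had too few counts to describe.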
